A study of Homo sapiens with 12 samples.

Results

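Of 10000 possible ordered pairs of 100 protein domains, 100 carried the same domain in both positions, and these same-domain pairs are described here. They were found by comparing the names of the first and the second domain of every library member. In all, 9983 ordered pairs had at least 1 read. Of the 100 same-domain pairs, 79 held a domain under study and 21 held a control sequence (11 tiles of the muscle protein dystrophin, DMD, and 10 random sequences), 1 DMD tile more than the protocol in the labels lists. The 79 domains were 51 short nuclear domains named after their Pfam family, 23 tiles of other nuclear proteins (silencer tiles), 3 KRAB variants and 2 domains of NIZP1. The names in the files give a protein and a start, and no domain sequence was used here.

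Each library member was fused to rTetR, a bacterial repressor variant that binds its operators only in the presence of doxycycline, and delivered by lentivirus to K562 cells, an established human line from a chronic myeloid leukaemia, with a reporter gene. The activation screen used the line K562 + pDY032 and 2 days of doxycycline. The repression screen used K562 + pJT039 and 5 days of doxycycline, and in the memory screen 5 more days without the drug followed. The submitters' titles call the memory screen unused, with no reason given in the sources used here. All libraries shared 7 days of blasticidin and 1000 ng/mL doxycycline. Cells of every screen were split into a bound fraction, read here as reporter on, and an unbound fraction, read as reporter off, in 2 replicates infected separately, which gave 12 libraries of genomic DNA. Each screen rests on 1 reporter line. All 12 libraries were fitted together. The p-values therefore rest on a spread shared by all screens, and not on the 2 infections of 1 screen alone.

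Fusing a transcriptional effector domain to a DNA-binding protein is the classical way to ask whether it activates or silences a gene. Activation domains such as those of MYB and FOXO proteins and of nuclear receptor coactivators bring in coactivators and the transcription machinery. KRAB domains bring in TRIM28 and, through it, heterochromatin, a chain that also includes HP1 proteins such as CBX1. Silencing through heterochromatin can outlast the recruiting protein. A pair of identical domains asks whether a second copy adds to the first, for which the reference is the same domain beside a control sequence.

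Reads of same-domain pairs were not spread evenly over the libraries. With 1.00% of the possible members, they took 11% of all reads. Their share ran from 1.33% (95% Wilson interval 1.32 to 1.33%) in memory unbound replicate 1 to 24.8% (24.7 to 24.8%) in repression unbound replicate 1. Such intervals cover counting error only. The reads expected for each pair were computed from how often its domain stood first and second in pairs of different domains. In memory unbound replicate 1 the median ratio of observed over expected reads was 1.01, and 52 of 100 same-domain pairs lay above 1. In the other 11 libraries that median ran from 4.11 (activation bound replicate 1) to 25.8 (repression unbound replicate 1), and 100 of 100 pairs lay above 1. Memory unbound replicate 1 therefore stood apart from the other libraries in this measure. The 84 pairs of different domains of 1 Pfam family had median ratios of 0.845 to 1.01 in the 12 libraries. The cause of the excess was not tested. Whether all of these reads came from true same-domain fusions was not tested either, and every same-domain value below rests on them. Over the 11 libraries the SMCA2 QLQ pair had the highest median ratio, 25.1, against 1.14 in memory unbound replicate 1. PCGF2 zf-C3HC4_2 had the lowest median, 6.01, against 0.552 there.

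Scores below are the log2 of the bound over the unbound share of reads. For same-domain pairs, 0 was set in each screen and replicate at the median of the 21 same-domain controls. For other pairs it was set at the median of pairs of 2 different controls. The difference between these medians was -0.73 and 0.59 in the activation replicates, -1.29 and -0.56 in the repression replicates and 3.37 and -0.02 in the memory replicates. Library totals ran from 612999 counts (activation unbound replicate 2) to 55121999. Between replicates, Pearson's r over the 100 same-domain scores was 0.945 for activation, 0.942 for repression and 0.698 for memory, where the points share the libraries and their depth. The weaker memory correlation came with the library that stood apart, and its part in it was not tested.

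The same-domain controls served as a yardstick. Leaving out DMD tile 31, the 20 others had fitted values between -0.93 and 0.81 in activation, where 5 of 20 passed the test at an adjusted p of 0.05 or less. In repression they lay between -0.56 and 1.23, and again 5 of 20 passed. The memory range was -0.48 to 0.63 and 0 of 20 passed by edgeR's quasi-likelihood test. A call inside these ranges was thus also made among control sequences, and members are counted below both by the test and by whether they fall outside the control range.

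DMD tile 31 did not act like a control, though it stayed among the control partners of every other domain. Its same-domain pair scored 2.42 and 1.77 in the activation replicates and -2.15 and -2.48 in the repression replicates. Beside other controls the tile stood at 2.11 ± 0.12 (SE) in activation and -1.33 ± 0.12 in repression. The pair and the single tile had the same activation value within error (difference 0.00 ± 0.24), while in repression the pair was lower by 0.98 (edgeR adjusted p = 0.0272).

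In the activation screen, the pairs of known activation domains and of several SH3, WW and coactivator domains enriched in the bound fraction, and pairs of the 3 KRAB variants, SUMO3 and 2 of 3 HP1 and chromodomain members enriched in the unbound fraction. Of 78 same-domain pairs tested, 28 were higher and 31 lower than the same-domain controls at an adjusted p of 0.05 or less. Over all 9063 members tested, 26.8% were called, 15.6% higher and 11.2% lower. Of the same-domain calls, 25 lay above and 28 below the range of the 20 controls. JDP2 bZIP_1 was the pair with too few reads to be tested here, with 35 bound and 5 unbound reads in replicate 2.

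MYBA LMSTEN, a stretch of the transcription factor A-MYB, gave the highest activation value. Its pair had 44733 bound and 3887 unbound reads in replicate 1 and 80172 and 87 in replicate 2, or scores of 4.71 and 4.58. The fitted value was 4.65 ± 0.24 (SE), with edgeR's adjusted p = 4.12e-08. This is a 25.1-fold higher ratio of bound over unbound share than at the centre of the same-domain controls. Beside controls a single MYBA copy already reached 4.37 ± 0.14, and its medians were 4.54 when it stood first and 4.28 when it stood second. The pair exceeded the single copy by 0.28 ± 0.22, which did not pass the test (adjusted p = 0.299).

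The next 4 members by value also had a high pair and a high single copy. For NCOA2 Nuc_rec_co-act, from a coactivator of nuclear receptors, the pair scored 4.47 and 4.55 and the single copy stood at 3.95 ± 0.14. FOXO3 FOXO-TAD, the activation domain of a forkhead factor, scored 4.72 and 4.12 as a pair against 3.77 ± 0.14 alone. Tile 22 of ENSG00000179833 scored 4.37 and 4.03 against 3.55 ± 0.11. ZN473 KRAB, a KRAB domain that enriched in the bound fraction, scored 4.11 and 3.62 against 3.35 ± 0.12. Their differences from the single copy lay between 0.51 and 0.66 and none passed the test, with adjusted p-values of 0.0995 (tile 22) to 0.256 (FOXO3).

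All 5 were far below the sum of their first-position and second-position effects. MYBA's expected sum was 8.82 and its pair deviated from it by -4.17 ± 0.26 (limma adjusted p = 1.10e-04). NCOA2 deviated by -3.30 ± 0.20. The other 3 deviated by -3.35 ± 0.30 (tile 22), -3.44 ± 0.27 (FOXO3) and -3.58 ± 0.23 (ZN473). With the stronger single effect as the reference in place of the sum, the deviations of MYBA, NCOA2, FOXO3 and tile 22 turned to small positive values of 0.07, 0.18, 0.26 and 0.30 that did not pass the test. The value of the pair was thus nearer to the better position alone than to the sum. Scores had a floor of 5 reads, and the unbound library of replicate 2 held 612999 counts. Its median was 379 reads for same-domain pairs and 27 for pairs of different domains. The floor could thus limit high scores beside controls as well as those of same-domain pairs. The part of this limit in the deviations from the sum was not tested.

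The largest called gains over the single copy came from domains with lower single values, and whether their gains differ from those of the 5 domains above was not tested. BTK SH3_1, the SH3 domain of Bruton's tyrosine kinase, had 11259 bound and 2362 unbound reads in replicate 1 and 16553 and 50 in replicate 2, or scores of 3.44 and 3.10. Its single copy stood at 1.16 ± 0.12, with medians of 0.63 as the first and 0.20 as the second domain. The pair exceeded the single copy by 2.13 ± 0.34 (4.38-fold, edgeR adjusted p = 0.00119), by 2.31 in replicate 1 and 1.92 in replicate 2. It also exceeded its expected sum of 0.83 by 2.44 ± 0.29 (limma adjusted p = 0.00191). Both replicates were above the highest of the 20 controls in this difference, 0.64.

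ANM2 SH3_1, from the arginine methyltransferase PRMT2, scored 3.07 and 3.55 as a pair and exceeded its single copy by 1.95 ± 0.36. APC16 ANAPC16, a subunit of the anaphase-promoting complex, scored 2.93 and 2.37 and exceeded it by 1.63 ± 0.22. WBP4 WW, from a spliceosome-associated protein, scored 2.17 and 1.77 and exceeded it by 1.57 ± 0.28. All 3 had adjusted p-values of 0.00241 or less by edgeR. Next came IKKA IKKbetaNEMObind, the NEMO-binding segment of a kinase of the NF-kB pathway, with pair scores of 2.27 and 1.92 and a difference of 1.49 ± 0.18. CRTC2 TORC_C, from a coactivator of CREB, scored 3.25 and 2.66 and differed by 1.37 ± 0.30. Domains of the SWI/SNF chromatin remodeller also gained, SMCA2 QLQ, from its ATPase, by 1.33 ± 0.25 and SMRC2 Myb_DNA-binding, from a core subunit, by 1.28 ± 0.15. The size of some gains depended on the control partners. With DMD tiles as the only partners the gain was 1.15 for ANM2 (1.40, adjusted p = 0.0508, against second-position copies alone) and 1.08 for APC16, and those of WBP4 (0.94, edgeR adjusted p = 0.0516) and CRTC2 (0.61, adjusted p = 0.0965) did not pass.

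Counted over the groups, 3 of 4 SH3 domains (BTK, ANM2, ABL1) had a called gain over the single copy, and BIN1 SH3_9 did not, with a difference of -0.26 ± 0.15. Of 5 WW domains, 5 had a called positive activation value as a pair and 2 (WBP4 and APBB1) a called gain over the single copy. The lowest WW pair value, 0.69, lay inside the range of the 20 controls (-0.93 to 0.81). ITCH, WWP2 and KIBRA had gains of 0.39, 0.97 and 0.63 that did not pass. Among 6 coactivator and remodeller domains 4 were called higher as a pair (NCOA2, CRTC2, SMCA2, SMRC2), and 3 gained over the single copy. DPY30, a subunit of histone methyltransferase complexes, was lower than its single copy by 0.91 (edgeR adjusted p = 0.035). This difference lay inside the range of the 20 controls, -1.05 to 0.64. All 4 KRAB domains outside the KRAB variants (ZN473, ZN597, ZFP28, NIZP1) were called higher as pairs, at 0.60 to 3.86. The lowest of these values also lay inside the range of control pairs. Against the single copy 0 of 4 were called. Of 5 domains listed as transcription factors by protein name (MYBA, FOXO3, NOTC2, ATF1, CREM), 3 were called higher and 0 lower. The NOTC2 member is the Notch domain of a receptor, not a transcription factor domain. It had a called gain of 0.53, inside the control range of such differences. The bZIP domains of ATF1 and CREM had values of -0.82 ± 1.01 and -1.48 ± 0.59 that did not pass.

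In the unbound fraction, SUMO3 Rad60-SLD, the body of a small ubiquitin-like modifier, gave the lowest activation value. Its pair had 864 bound and 9374 unbound reads in replicate 1 and 1169 and 323 in replicate 2, or scores of -2.25 and -3.41. The fit gave -2.82 ± 0.32 against -1.27 ± 0.16 for the single copy, a difference of -1.56 ± 0.41 (edgeR adjusted p = 0.0132). The KRAB variants scored between -1.89 and -3.24 in the 2 replicates, and 2 of 3 were called lower than their single copy, P21506 by 1.43 and M0QYP0 by 1.34. Q3KP31 differed by -1.14 ± 0.64, which did not pass.

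Silencer tiles supplied most of the other losses against the single copy. Of 23 tiles 15 were called lower as a pair and 12 were lower than their single copy, with tile 38 of ENSG00000111642 at -1.63 ± 0.51 and tile 11 of ENSG00000163602 at -1.50 ± 0.38. ZN777 DUF3669, a domain of a KRAB zinc finger protein, scored -1.44 and -1.99 as a pair, where the single copy had -0.13 ± 0.10. Its pair was lower by 1.58 (SE 0.23, adjusted p = 0.00108), which was also 1.08 below its expected sum. SCMH1 SAM_1, from a Polycomb protein, was lower than its single copy by 1.36, with pair scores of -1.40 and -1.83. Also lower by 1.41 each were tile 47 of ENSG00000141644 and tile 12 of ENSG00000102974. Of the HP1 and chromodomain members, MPP8 Chromo and CBX1 Chromo_shadow were called lower as pairs, at -2.63 ± 0.66 and -2.18 ± 0.43, and not against the single copy. CBX1 scored -1.06 and -3.35, so its replicates lay far apart.

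Single copies beside controls were called in 57 of the 79 domains, 29 higher and 28 lower, and in 59.6% of all 99 domains tested (31.3% higher, 28.3% lower); without replicate 1 the count was 33. Over all 99 domains tested against their single copy, controls included, 39.4% were called (16.2% higher and 23.2% lower). Among the 79 domains that are not controls 15 were higher and 19 lower, of which 14 lay above and 13 below the range of the 20 controls, -1.05 to 0.64. Of these controls 5 were called too. Against the sum, 28.9% of 97 domains were called (16.5% higher, 12.4% lower), and 14 non-control pairs lay above and 8 below. With means over partners in place of medians the split was 7 above and 9 below, and with the stronger single effect as the reference 16 and 15. These calls depended on the centring. With same-domain pairs centred like all other pairs, 0 were called against the single copy and 1 against the sum. BTK's difference was then 2.04 with an edgeR adjusted p of 0.945. Without replicate 2, which holds the shallowest library, the count of pair calls was 36 instead of 59 and that against the single copy 14 instead of 34. Against the sum it was 9 without replicate 2 and 10 without replicate 1.

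In the repression screen, silencing domains dominated. Of 79 same-domain pairs tested, 58 were lower and 6 higher than the same-domain controls. Over all 9062 members tested 59% were called, 58.2% lower and 0.828% higher, so lower pairs were common among all members. Of the calls, 57 lay below and 4 above the range of the 20 controls. The 36 domains whose single copy silenced (a called single value of -1 or lower in repression with no activation) had a median of -3.32 as a pair and -2.79 as a single copy, against 0.07 and -0.02 for the 20 controls. Single copies were lower in 58 and higher in 4 of the 79 domains, against 59% lower and 4% higher among all 100 (63% called).

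The 3 KRAB variants gave the lowest values. KRAB variant P21506, named in the files by a protein identifier, had 792 bound and 5716 unbound reads in replicate 1 and 235 and 7843 in replicate 2, or scores of -5.35 and -6.04. M0QYP0 scored -5.26 and -6.02, and Q3KP31 scored -4.75 and -6.70. All 6 values lay far below the lowest of the 20 controls, on at least 161 bound reads a library. Relative to the same-domain controls, the fitted ratio of bound over unbound share was 51.6-fold lower for P21506, 49.8-fold lower for M0QYP0 and 51.9-fold lower for Q3KP31. Single copies stood at -4.75 ± 0.23, -4.74 ± 0.19 and -4.45 ± 0.18. The pairs were lower than these by 0.90 to 1.24, and none of these differences passed the test (adjusted p = 0.12 to 0.202). Their expected sums were near -10, at -9.33 to -9.92, and the pairs lay 3.69 to 4.22 above them by limma.

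YAF2 YAF2_RYBP, from a subunit of Polycomb repressive complex PRC1, had the lowest difference from its single copy. Its pair scored -4.89 and -6.23, on 38 to 1449 reads a library, where the single copy had -3.67 ± 0.17. The difference was -1.82 ± 0.49 (edgeR adjusted p = 0.0272), -1.41 in replicate 1 and -2.37 in replicate 2. With DMD tiles as the only partners it was -1.14 and did not pass (edgeR adjusted p = 0.20). SUMO3 Rad60-SLD scored -4.96 and -5.65 and differed by -1.48 ± 0.41, or by -0.80 (adjusted p = 0.202) against single copies in the first position alone. Tile 11 of ENSG00000163602 scored -4.82 and -5.87 and differed by -1.54 ± 0.38. Tile 12 of ENSG00000102974 differed by -1.15 ± 0.31, and tile 12 of ENSG00000155090 by -0.93 ± 0.29.

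HERC2 Cyt-b5, from a large ubiquitin ligase, scored -4.23 and -5.58, and tile 38 of ENSG00000111642 scored -4.43 and -5.31. Their differences from the single copy, -1.78 ± 0.60 and -1.45 ± 0.51, did not pass the test (adjusted p = 0.0538 and 0.0636). CBX1 Chromo_shadow, the domain through which HP1 proteins dimerise, scored -4.21 and -4.72 as a pair against -3.74 ± 0.18 as a single copy, a difference of -0.72 ± 0.57. MPP8 Chromo, from a subunit of the HUSH complex, scored -3.94 and -4.40 on 70 to 753 reads a library, and its difference of -1.26 ± 0.54 did not pass either. CHD3 DUF1087, on the HP1 and chromodomain list by protein name, was near 0, at -0.34 ± 0.40. CDYL2 Chromo, outside that list, had a fitted pair value of -4.73 here and -1.65 in memory.

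Some domains with a weaker single copy were also lower as a pair. KS6B2 Pkinase_C, from the kinase S6K2, scored -1.58 and -1.32 as a pair against -0.59 ± 0.12 as a single copy, and the pair was also 0.82 below its expected sum of -0.63. U2AF4 RRM_1, an RNA-binding domain of a splicing factor, scored -1.29 and -1.74 against -0.67 ± 0.10. ZN777 DUF3669 scored -2.71 and -2.80 against -1.72 ± 0.10. ZFP28 KRAB and NIZP1 KRAB, which had enriched in the bound fraction of the activation screen, were lower than their single copies by 0.76 and 0.71.

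The 6 dual domains (MYBA, FOXO3, NCOA2, ZN473, SMCA2 QLQ and tile 22) were put in that class because their single copies were called higher in activation and lower in this screen, so the sign of their pairs is a description. Their pair values ran from -2.14 (FOXO3) to -1.29 (SMCA2). Of the 7 domains classed as activating alone, 3 pairs were called lower and 1 higher in repression, with a median of -0.09. MYBA scored -1.75 and -2.23, and NCOA2 scored -1.23 and -2.26. None of the 6 passed against its single copy, and MYBA came nearest (difference -0.63 ± 0.21, adjusted p = 0.0538). By limma 4 of the 6 deviated from their sum toward 0, MYBA by 1.17 and FOXO3 by 1.42.

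Higher values were few. DPF1 Requiem_N, from a subunit of a SWI/SNF remodeller, scored 1.77 and 1.54 as a pair and 0.63 ± 0.12 as a single copy, a difference of 1.03 ± 0.26 (edgeR adjusted p = 0.0251). DPY30 Dpy-30 scored 1.80 and 1.24 and differed by 1.07 ± 0.30. Tile 238 of ENSG00000174197 scored 1.35 and 1.43 and differed by 1.30 ± 0.20. These differences lay inside the range of the 20 controls, whose highest member, random control 89, was at 1.34. BTK SH3_1, with scores of 1.79 and 0.71, exceeded its single copy by 1.00 ± 0.33 without passing the test (adjusted p = 0.0532). Tile 13 of ENSG00000205571 and SMRC2 had called pair values of 0.83 and 0.41, which with the other centring became -0.09 and -0.51.

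Against the single copy 22% of 100 domains were called (5% higher, 17% lower), with 3 higher and 16 lower among the 79. All 16 lower ones lay below the range of the 20 controls, -0.49 to 1.34, and 0 of the 3 higher ones above it. The 23 silencer tiles had 17 called lower as pairs and 4 called lower than the single copy. Of 3 Polycomb members (YAF2, PCGF2, SCMH1) 3 were lower as pairs and YAF2 and SCMH1 lower than the single copy. Without either replicate 0 of the 19 calls against the single copy passed. YAF2's difference was then -2.36 (adjusted p = 0.0859, without replicate 1) and -1.40 (0.213, without replicate 2) by edgeR. With the other centring the count was also 0. Against the sum, 43.9% of 98 domains were called (39.8% higher, 4.08% lower), 37 non-control pairs above their sum and 3 below it (KS6B2, ZFP28 and CACO1 Zn-C2H2_12). Among the 36 silencing domains 32 lay above, with a median deviation of 3.03. Without replicate 2 the count was 25 instead of 40, and with the stronger single effect as the reference it was 5.

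Pair values were set against single values across 99 domains in activation and 100 in repression and in memory. The slope of the pair on the single value was 1.52 for activation, 1.30 for repression and 1.5 for memory, with Pearson's r of 0.906, 0.967 and 0.927. These are descriptions over domains that share libraries and controls. The classes were set with the single values, so the medians that follow carry no test. By class, the median difference from the single copy in activation was 1.37 for the 7 activating domains, 0.60 for the 6 dual domains and -1.28 for the silencing domains, against -0.10 for the 20 controls. In repression it was -0.74 for the silencing domains, -0.06 for the activating domains, -0.36 for the dual domains and 0.07 for the 20 controls.

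In the memory screen, after doxycycline had been withdrawn, the KRAB variants, CBX1 and a few tiles scored lower than the same-domain controls. This reading rests on these controls as the centre. Scaled on total counts, the 3 KRAB variants stayed below 0, at -1.14 to -0.29 with none called, while CBX1 (0.39), YAF2 (0.41), SUMO3 (0.84), tile 18 of ENSG00000100307 (0.41) and tile 118 of ENSG00000076108 (0.78) lay above 0. Of 79 same-domain pairs tested, 11 were lower and 1 higher than the same-domain controls, and all 12 lay outside the range of the 20 controls. Over all 9337 members tested 8.63% were called, 8.20% lower and 0.428% higher. Since memory unbound replicate 1 stood apart in its same-domain reads, each value is given by replicate. Without replicate 1 the test called 2 pairs (P21506 and M0QYP0), and without replicate 2 it called 4 (these and tile 118 of ENSG00000076108 and tile 18 of ENSG00000100307).

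P21506 scored -2.96 and -3.57, and its fit gave -3.26 ± 0.32 (edgeR adjusted p = 2.28e-04). M0QYP0 scored -2.46 and -2.87, and Q3KP31 scored -1.57 and -3.25. All 6 values were below the lowest control. Single copies of the 3 variants stood at -2.11 ± 0.21, -1.78 ± 0.17 and -1.61 ± 0.16.

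CBX1 Chromo_shadow scored -1.86 and -1.61 and YAF2 scored -1.27 and -2.17. SUMO3 scored -1.56 and -1.003. Tile 18 of ENSG00000100307 scored -1.61 and -1.83 with a fitted value of -1.72 ± 0.19. Tile 118 of ENSG00000076108 scored -1.65 and -1.06. All of these were lower in both replicates, in replicate 2 as well as in the replicate with the library that stood apart. MPP8 Chromo, at -2.31 and -1.56, did not pass (adjusted p = 0.0777), on 238 to 697 reads a library.

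KIBRA WW was the 1 higher member, with scores of 1.17 and 0.70 and a fit of 0.93 ± 0.27 (adjusted p = 0.0493). Its single copy had a median of -0.20 in the first position and 1.26 in the second, a difference that was not tested. In activation these medians were 0.64 and 2.40, and the pair was at 2.76 ± 0.29.

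Against the single copy, 0 of 100 domains were called in memory by edgeR, with 6 at an unadjusted p under 0.05, and DESeq2 and limma called 0 non-control domains. Against the sum limma called 0 of 98, with 5 at an unadjusted p under 0.05. P21506 was lower than its single copy by 0.56 in replicate 1 and 1.75 in replicate 2, a difference of -1.16 ± 0.44 (adjusted p = 0.577). By edgeR the single-copy sums gave 22 lower calls and 1 higher among the 79, or 23% of all 100 domains (22% lower, 1% higher), and 14 without replicate 1. Centred like all other pairs, or scaled on total counts, 0 same-domain pairs were called in memory, and limma on scores also called 0.

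Most silencing pairs recovered between the 5 days of doxycycline and the 5 days without it. The memory minus repression difference was called higher in 45 and lower in 3 of the 79 pairs. Over all 8935 members tested 44.8% were called, 44.1% higher and 0.750% lower. Of the 21 controls 1 was higher and 2 were lower, and the higher one was DMD tile 31. Of the 36 silencing domains 26 were called higher, with a median of 2.57. This class was set on low single values in the repression screen itself, so a positive difference was partly built in and the count is a description. The largest recoveries were those of tile 38 of ENSG00000111642, from -4.87 to -0.03, tile 11 of ENSG00000163602, from -5.33 to -0.98, and HERC2 Cyt-b5, from -4.90 to -0.67. SUMO3 recovered by 4.02 ± 0.44 and YAF2 by 3.81 ± 0.70. P21506, with a change of 2.42 ± 0.43 from -5.69 to -3.26, kept the lowest memory value. The 3 pairs that fell were DPF1 (by 2.37), DPY30 (by 1.44) and tile 238 of ENSG00000174197 (by 1.18). Without memory replicate 1 the counts were 38 higher and 3 lower. With the other centring they were 62 higher and 0 lower, and on total counts 28 higher and 0 lower, so under both settings none of the 3 falls passed.

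Genes were matched by symbol or synonym to the RefSeq table of GRCh38.p14, and the submitters' processing notes name hg38. The gene of CBX1 spans chromosome 17, positions 48070059 to 48101478, and that of SUMO3 chromosome 21, positions 44805617 to 44818062. BTK lies on chromosome X, positions 101349450 to 101390796, and FOXO3 on chromosome 6, positions 108559825 to 108684774. Of the 100 domains 54 were matched, 11 of them DMD tiles, and the silencer tiles keep their gene identifier and tile number. By the file names, BTK's domain starts at residue 203 and is 46 residues long, CBX1's starts at 104 with 52 residues and SUMO3's at 12 with 70.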

How the data were processed

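Raw read counts per library member were deposited by the authors for 12 genomic DNA libraries. Per the design text, reads of both domains were aligned separately with Bowtie2 (version not given in the sources used here) after trimming 30 bases from each end, and read pairs were then counted. The labels' protocols give 33 PCR cycles and no molecular identifiers are described, so counts are not independent molecules.

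Members needed at least 5 reads in either fraction and 50 in both together in each replicate. Bound against unbound counts were tested with edgeR 4.0.16 (quasi-likelihood; a block for each screen and replicate; offsets from the control medians; R 4.3.3). Single copies were the summed counts of a domain beside different controls in either position, and pair minus single was an interaction term. DMD tile 31 stayed among these partners. The 20 other controls had a median single value of 0.18 in activation and -0.02 in repression, and the part of tile 31 in this was not tested. With single copies centred on the summed controls, calls against the single copy were 32 in activation (17 higher, 15 lower) and 18 in repression (3 higher, 15 lower). Deviations from the sum of both position medians were tested with limma 3.58.1 on scores with a floor of 5 reads, with at least 5 control partners a position. DESeq2 1.42.0 was an alternative. Every fit held all screens together with a shared estimate of the spread. Benjamini-Hochberg adjustment ran over all members or all domains tested, with calls at 0.05. Classes needed a called single value of at least 1 in size. SE is that of the fit. Replicate numbers pair bound and unbound cells of 1 infected culture. The tests of pairs, of pair minus single and of deviations from the sum were run on simulated counts, with changes set in the repression screen only. The other steps were not run on simulated data.

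The members and lists were chosen with earlier results of these data known. Named domains were, in each screen and direction, up to 8 with the largest called pair value and up to 8 with the largest called difference from the single copy, with 1 sign in both replicates, plus a fixed list; others complete a counted group and were named after their values were seen. Groups followed protein names, so NOTC2 Notch fell inside the transcription factor list and CDYL2 Chromo outside the HP1 and chromodomain list. The values of 1 domain that the rule names are not reported here; it stays in the counts.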

Additional observations from a re-analysis of the deposited data

Results flagged for a closer look

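The effect of a same-domain pair differed between the repression and the memory screen, which use the same reporter line, in 45 pairs that were higher in memory and 3 that were lower, by the memory minus repression contrast of the edgeR fit. Among the members described whatever their values, the contrast was 2.42 for KRAB variant P21506, 2.97 for M0QYP0 and 3.29 for Q3KP31. It was 2.73 for CBX1, 4.02 for SUMO3 and 3.81 for YAF2. The dual domains MYBA (1.80), NCOA2 (1.99), FOXO3 (2.16), ZN473 (1.63) and tile 22 of ENSG00000179833 (1.75) and the control DMD tile 31 (2.08) differed in the same direction. BTK SH3_1 had 1.24 in repression and 0.38 in memory, a difference that did not pass the test (adjusted p = 0.108 by edgeR). With the other control centre, 62 were higher and 0 lower. Memory unbound replicate 1 enters each of these values. Without memory replicate 1, SUMO3 had 4.29, YAF2 3.36 and P21506 2.12. No outlier test applies to groups of 2 replicates.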

How the results depend on the processing

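Counts below are of called non-control same-domain pairs. With same-domain members centred on pairs of 2 different controls, activation fell from 59 to 24 (13 higher, 11 lower), repression went from 64 to 55 (0 higher) and memory from 12 to 0. Against the single copy it left 0 in activation and in repression, and against the sum 1 in activation and 0 in repression. Scaling on total counts gave 49 in activation (8 higher, 41 lower), 32 in repression (5 higher, 27 lower), 0 in memory, 0 and 0 against the single copy and 28 for memory minus repression. For memory, limma on scores gave 0. The stronger single effect in place of the sum gave 5 in repression, and DMD partners alone gave 9 repression calls against the single copy. In activation, DMD partners alone gave 29 calls against the single copy (9 higher, 20 lower). Random partners alone gave 42 (20 higher, 22 lower). Replicate numbers pair the fractions of 1 culture, and with no replicate block there were 36 calls in activation, 3 in memory and 0 against the single copy in activation and repression.

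Leaving out 1 replicate gave 36 to 44 calls in activation, 52 to 56 in repression and 2 to 4 in memory. Against the single copy it gave 14 to 32 in activation and 0 to 0 in repression, and against the sum 9 to 10 and 25 to 31. Memory minus repression kept 41 to 45 in number, and single copies 33 to 40, 54 to 58 and 14 to 23 in the 3 screens. The lone replicate was assumed to vary like the other screens. In memory, 0 were called against the single copy or the sum under every setting run.

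Signs turned for several single values. With the stronger single effect, activation deviations were 0.26 (FOXO3), 0.0736 (MYBA), 0.18 (NCOA2), 0.30 (tile 22) and 0.025 (DMD tile 31), and repression deviations -0.72 (M0QYP0), -0.57 (P21506), -0.73 (Q3KP31), -0.28 (FOXO3), -0.33 (MYBA), -0.22 (NCOA2), -0.68 (SUMO3), -0.94 (YAF2), -0.27 (tile 22) and -0.93 (DMD tile 31). With the other control centre, repression pairs were -0.0919 (tile 13 of ENSG00000205571) and -0.51 (SMRC2), and memory pairs 0.32 (tile 118) and 0.39 (SUMO3). On total counts, memory pairs were 0.39 (CBX1), 0.41 (tile 18 of ENSG00000100307), 0.41 (YAF2), 0.78 (tile 118) and 0.84 (SUMO3). The cause was not tested. All alternatives for memory minus repression, left-out replicates for single copies, and single copies centred on summed controls were added after seeing the data. The shallowest library limits activation replicate 2.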
